A study of Mus musculus with 12 samples.

Results

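Messenger RNAs of the cell division cycle were followed in cultures that are labelled as neurons. The genes are 44 replication and mitosis genes chosen by symbol, and they were matched to the Ensembl identifiers of the deposited tables. Of these, 43 had read counts, and Kif11 (a spindle motor) was NA in every table. Each table listed 36902 genes, of which 33560 had counts. The 12 libraries come from glutamatergic neurons differentiated from mouse embryonic stem cells and taken at day 21 in culture. The cultures belong to 6 cell lines: 3 wild-type lines (WT1, WT2 and WT3) and 3 lines labelled Daam1-MIC_KO (KO1, KO2 and KO3), which lack a microexon of Daam1, a formin that assembles actin filaments. Each line gave 1 library after 2 h in water (vehicle) and 1 after 2 h in 10 µM Y-27632, an inhibitor of the kinase ROCK. Thus 4 groups of 3 libraries were formed: WT vehicle, KO vehicle, WT inhibitor and KO inhibitor. The labels number the lines but do not say whether each is a separate clone, and a count per gene cannot show whether a microexon is missing, so the genotype was not checked here.

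A cell that divides first licenses its replication origins by loading the MCM helicase, then copies its DNA in S phase under cyclin E and cyclin A, and then enters mitosis under cyclin B and Cdk1. E2F factors drive many of the replication genes, while most mitotic genes are held silent by the DREAM complex in resting cells and are switched on by B-Myb and FoxM1. Neurons leave this cycle for good when they are born, so in neuron cultures these messages are commonly read as a sign of progenitors, glia or other cells that still divide. Some members are also known outside dividing cells, such as cyclin E1 in adult brain.

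Library totals ran from 23253566 to 35012561 counts. Levels compared between libraries are CPM, read counts put on one sequencing depth after TMM normalization, and levels compared between genes are the deposited cRPKM, which are also per length. The KO3 inhibitor library stood apart from the rest: its median correlation with the others was 0.854, against 0.953 to 0.986 for the other 11, so ranges and tests are given with and without it. The neuron label was met by all 8 neuron markers, led by Snap25 (a synaptic fusion protein) at 161 to 664 cRPKM. Of the glutamatergic markers, the vesicular transporter Slc17a6 stood at 13.4 to 102 cRPKM and the receptor subunit Grin1 at 32.6 to 153 cRPKM. The cortical markers Slc17a7, Neurod2, Neurod6 and Tbr1 were at 0.70 cRPKM or less in every library, and Gad1 (GABA synthesis) was at 27.8 to 76.3 cRPKM. In these bulk cultures, fewer cells of a type and less RNA per cell cannot be told apart.

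The 43 genes together made up 0.0181% to 0.245% of all counts in a library. Their summed level was 288.5, 1300.4 and 217 CPM in the vehicle libraries of WT1, WT2 and WT3, and 440.3, 182 and 230.1 CPM in those of KO1, KO2 and KO3. With the inhibitor it was 413, 422 and 1026 CPM in the WT lines and 599, 217 and 2303 CPM in the KO lines. The highest library, KO3 with the inhibitor, thus held 12.7 times the sum of the lowest, KO2 in vehicle. The ranges of the 4 groups overlapped, although no KO vehicle library was among the 3 highest and no WT inhibitor library among the 4 lowest. Group means (± SD, n = 3) were 602 ± 606 CPM for WT and 284 ± 137 CPM for KO in vehicle, and 620.2 ± 351 CPM for WT and 1039.5 ± 1110.5 CPM for KO with the inhibitor. The last was 408 ± 269.9 CPM (n = 2) without KO3. The SD was larger than the mean in 2 of the 4 groups. Without the KO3 inhibitor library the sums still ranged over 7.16-fold.

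**Figure D1:**
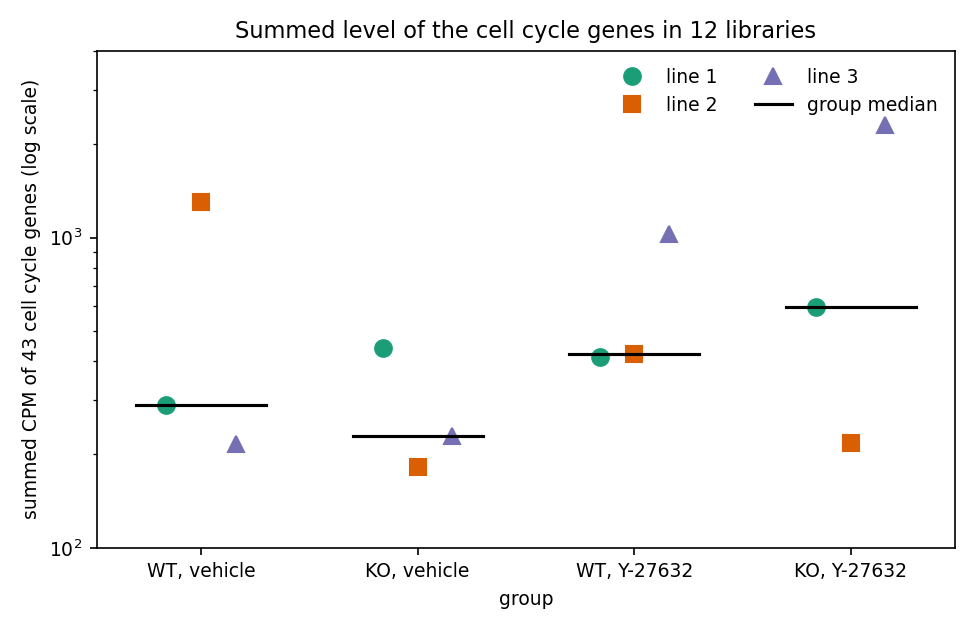
Summed level of the 43 cell cycle genes (CPM, log scale) in each of the 12 libraries, by group, with 1 symbol per line number and a bar at the group median. The KO3 inhibitor (2303 CPM), WT2 vehicle (1300.4 CPM) and WT3 inhibitor (1026 CPM) libraries lie above all others, and they come from 3 different groups.

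The members kept nearly the same order of libraries. In 42 of 43 the highest level was in the KO3 inhibitor library, the exception being Ccne1, which was lowest there. Of all genes tested, 38.4% were highest and 39.0% were lowest in that library. In 39 members (90.7%) the KO3 inhibitor, WT2 vehicle and WT3 inhibitor libraries were the 3 highest, and in 35 they came in that order. The same 3 libraries were the highest for 22.7% of the 15443 genes that passed the filter on low counts, so many other genes shared this order. At the other end, both KO2 libraries with those of KO3 and WT3 in vehicle were the 4 lowest in 35 members (81.4%), against 11.04% of all genes tested. These shares describe 12 libraries and carry no test.

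**Figure D2:**
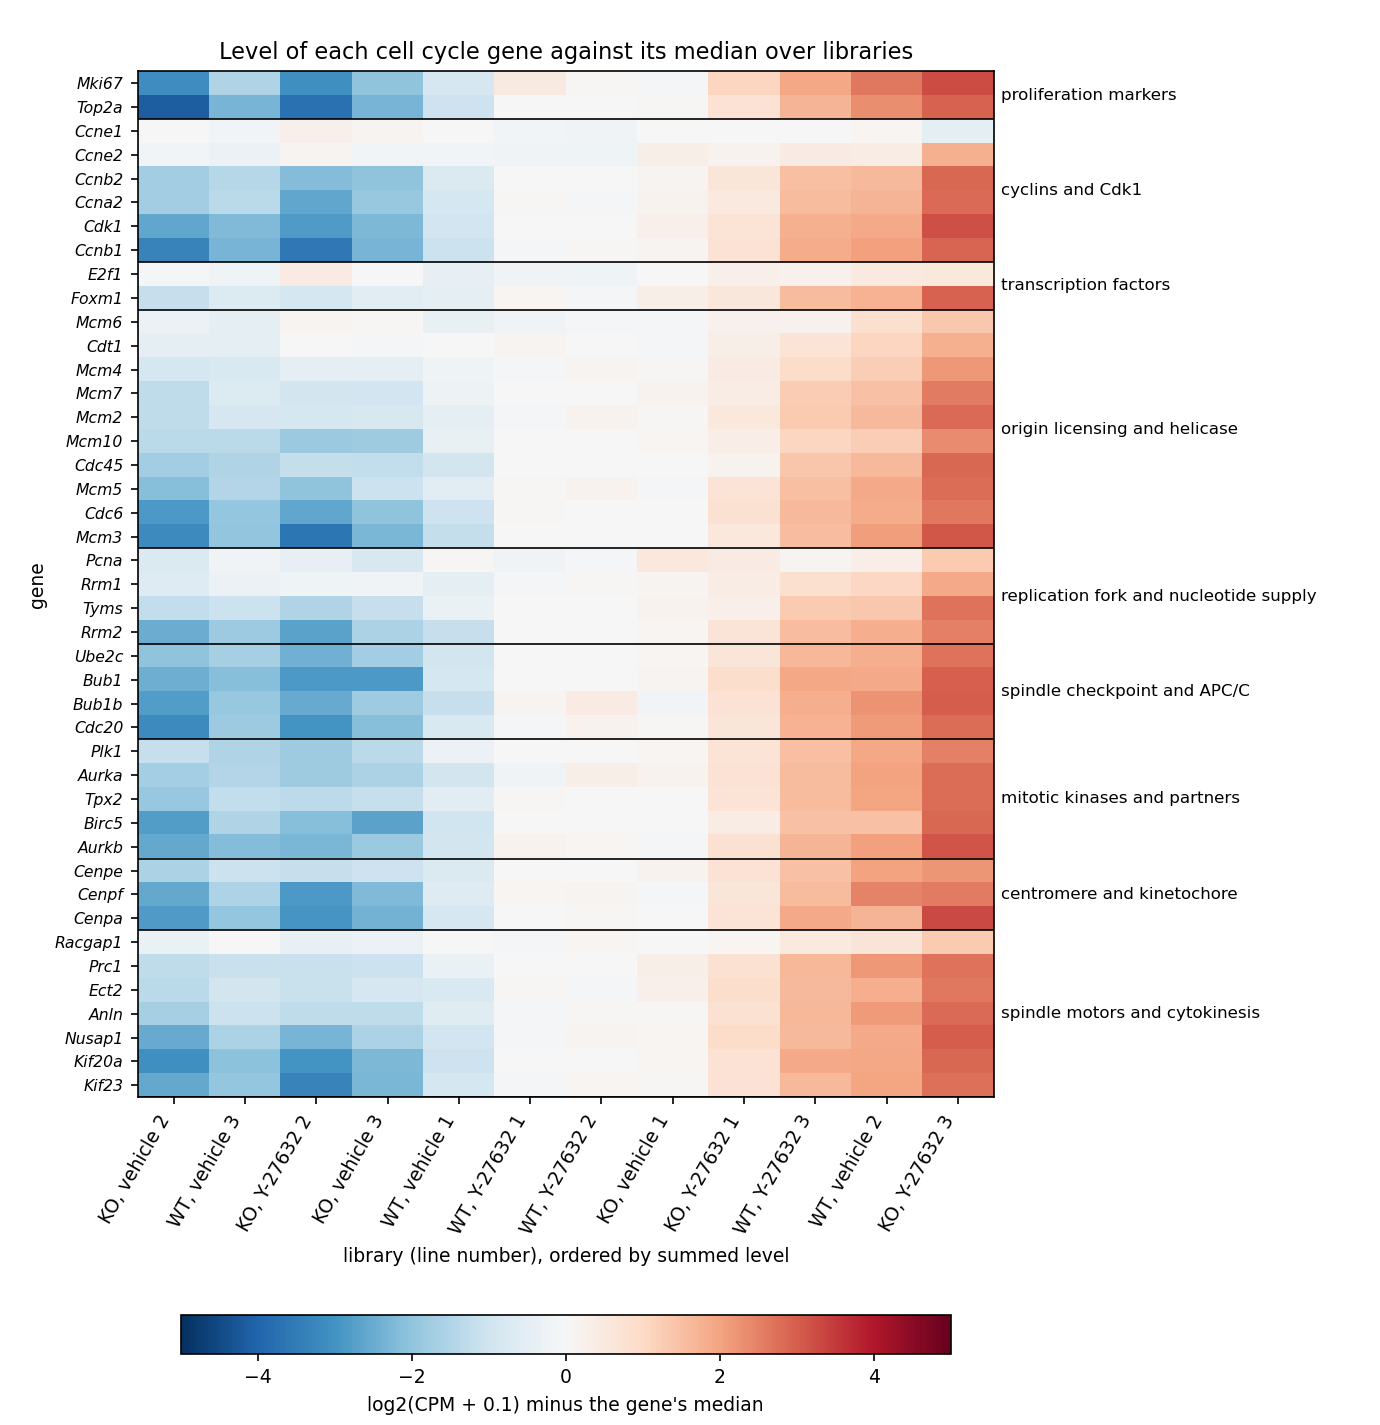
Level of each of the 43 genes in each library as log2(CPM + 0.1) minus that gene's median over the 12 libraries, with genes grouped by role and libraries ordered by summed level. Nearly all rows pass from blue at the left to red at the right together, whereas Ccne1, E2f1, Racgap1 and Mcm6 differ least.

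All 43 members passed the low-count filter, and the lowest count of any member in any library was 9 (Aurkb). The ratio of a gene's highest to its lowest library, computed on CPM + 0.1, had a median of 26.1 over the members and 2.49 over all genes tested. It reached 10-fold or more in 34 of 43 members (79.1%), against 10.3% of all genes tested. Without the KO3 inhibitor library the medians were 14.0 and 1.61, and 28 members (65.1%) against 5.87% of all genes spanned 10-fold or more. In the KO2 inhibitor library 15 members reached 1 cRPKM, while in the KO3 inhibitor, WT2 vehicle and WT3 inhibitor libraries all 43 did. The median member stood at 0.65 cRPKM in the first of these and at 20.0 cRPKM in the KO3 inhibitor library.

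Ranges from here on are the highest over the lowest library in CPM, followed in brackets by the range without the KO3 inhibitor library. The 2 proliferation markers were among the steepest members. Mki67 (chr7:135689784-135716361, GRCm38, minus strand) encodes the Ki-67 protein that coats mitotic chromosomes and is a standard mark of cycling cells. The level of Mki67 was 5.88, 66.3 and 3.65 CPM in the vehicle libraries of WT1, WT2 and WT3, and 10.2, 1.17 and 2.59 CPM in those of KO1, KO2 and KO3. Mki67 was at 14.4, 11.1 and 40.5 CPM in the same WT lines given the inhibitor, and at 22.7, 1.19 and 104 CPM in the KO lines given it. It ranged over 89.3-fold (56.8) from KO2 vehicle to KO3 with the inhibitor. Top2a (chr11:98992943-99024189, minus strand) encodes topoisomerase II alpha, which untangles sister DNA before mitosis. The level of Top2a was 12.5, 128 and 4.99 CPM in the vehicle libraries of WT1, WT2 and WT3, and 26.8, 1.38 and 5.02 CPM in those of KO1, KO2 and KO3. Top2a was at 26.1, 25 and 82.6 CPM in the same WT lines given the inhibitor, and at 42.1, 1.82 and 198 CPM in the KO lines given it. Its range of 143-fold (92.7) was the widest of the 43 members. In WT vehicle its mean was 48.6 ± 69.1 CPM (SD, n = 3) and in KO vehicle 11.1 ± 13.7 CPM. The ranges of these groups overlapped, with WT2 above all KO vehicle libraries and KO2 below all WT vehicle libraries. The annotated genes Gm23451 and Gm26394 overlap Top2a.

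The cyclins fell into 2 kinds. Cyclins A2, B1 and B2 and their kinase Cdk1, which act from S phase to mitosis, followed the markers: their ranges were 45.1-fold (20.5) for Ccna2, 99.1-fold (54.7) for Ccnb1, 36.6-fold (15.3) for Ccnb2 and 73.3-fold (29.2) for Cdk1. Ccnb1, for example, went from 0.36 cRPKM in the KO2 inhibitor library to 38.65 cRPKM in that of KO3. Cyclin E1 (Ccne1, chr7:38097984-38107534, minus strand), which opens S phase with Cdk2, was the most even member of all. The level of Ccne1 was 24.5, 27 and 22.7 CPM in the vehicle libraries of WT1, WT2 and WT3, and 25.3, 25.3 and 27.6 CPM in those of KO1, KO2 and KO3. Ccne1 was at 22.3, 22 and 24.9 CPM in the same WT lines given the inhibitor, and at 24.9, 29.8 and 18.1 CPM in the KO lines given it. These values span 1.65-fold (1.36), the KO3 inhibitor library is the lowest and the KO2 inhibitor library, one of the lowest for most members, is the highest. At a mean of 12.6 cRPKM, Ccne1 was also the most abundant member of its role group. Its paralog Ccne2 was 10.7, 14.9 and 9.46 CPM in the vehicle libraries of WT1, WT2 and WT3, and 14.3, 10.5 and 10.7 CPM in those of KO1, KO2 and KO3. Ccne2 was at 10.4, 9.96 and 15.4 CPM in the same WT lines given the inhibitor, and at 13.3, 12.7 and 40.3 CPM in the KO lines given it. Over all libraries Ccne2 spanned 4.25-fold (1.63). Ccne2 overlaps Ints8, and Ccna2 overlaps Exosc9, on the opposite strand.

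Of the transcription factors, E2f1 (chr2:154559407-154569892, minus strand), an activator of replication genes, was nearly flat and Foxm1, an activator of mitotic genes, was not. The level of E2f1 was 7.05, 13.1 and 8.13 CPM in the vehicle libraries of WT1, WT2 and WT3, and 9.33, 8.95 and 9.53 CPM in those of KO1, KO2 and KO3. E2f1 was at 8.31, 8.05 and 11 CPM in the same WT lines given the inhibitor, and at 11.3, 12.4 and 13.6 CPM in the KO lines given it. The range of E2f1 was 1.93-fold (1.86), and its 3 KO inhibitor libraries lay above its 3 KO vehicle libraries and above its 3 WT inhibitor libraries. Foxm1 ran from 0.48 to 9.09 cRPKM, a range of 17.8-fold (7.76) in CPM.

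The 10 genes of origin licensing and the replicative helicase were mixed, with a median range of 19.0-fold (8.54). The 6 subunits of the MCM2-7 helicase act as 1 ring, yet their messages spread very differently: 124-fold (61.2) for Mcm3, 31.6-fold (16.6) for Mcm5, 17.6-fold (7.69) for Mcm2, 15.1-fold (6.84) for Mcm7, 8.20-fold (4.35) for Mcm4 and 3.53-fold (2.39) for Mcm6 (chr1:128331590-128359664, minus strand). The level of Mcm6 was 24.5, 54.4 and 22.8 CPM in the vehicle libraries of WT1, WT2 and WT3, and 29.8, 25.5 and 32.4 CPM in those of KO1, KO2 and KO3. Mcm6 was at 28, 30.7 and 36.2 CPM in the same WT lines given the inhibitor, and at 36.3, 35 and 80.5 CPM in the KO lines given it. Mcm6 was the most abundant of the 10 at a mean of 12.8 cRPKM, and no library held less than 8.11 cRPKM of it. The level of Mcm3 was 3.61, 35.4 and 2.06 CPM in the vehicle libraries of WT1, WT2 and WT3, and 8.16, 0.822 and 1.61 CPM in those of KO1, KO2 and KO3. Mcm3 was at 8.51, 8.42 and 24.3 CPM in the same WT lines given the inhibitor, and at 12, 0.578 and 71.7 CPM in the KO lines given it. Mcm3 was singled out after its values were seen, as the widest of the ring. In the KO2 inhibitor library Mcm6 stood at 12.1 cRPKM and Mcm3 at 0.19 cRPKM, whereas in the KO3 inhibitor library they stood at 29.9 and 25.5 cRPKM. The level of Mcm2 was 6.16, 27.3 and 4.8 CPM in the vehicle libraries of WT1, WT2 and WT3, and 9.18, 3.55 and 4.94 CPM in those of KO1, KO2 and KO3. Mcm2 was at 8.28, 9.92 and 21.6 CPM in the same WT lines given the inhibitor, and at 12.5, 4.65 and 62.6 CPM in the KO lines given it. Among the loaders, Cdc6 spanned 52.0-fold (29.9) and Cdt1 4.81-fold (2.93), while Cdc45 and Mcm10, which turn the loaded ring into an active helicase, spanned 27.3-fold (11.4) and 20.4-fold (9.39). Mcm7 overlaps Ap4m1 and Cops6, and Cdc45 overlaps Ufd1, on the opposite strand.

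At the replication fork and in nucleotide supply the same split appeared. Ribonucleotide reductase needs both its subunits to make the building blocks of DNA, and its large subunit Rrm1 spanned 5.94-fold (3.28) while its small subunit Rrm2 spanned 39.2-fold (23.6). The level of Rrm2 was 5.74, 45 and 3.56 CPM in the vehicle libraries of WT1, WT2 and WT3, and 13.9, 2.21 and 4.23 CPM in those of KO1, KO2 and KO3. Rrm2 was at 12.9, 12.8 and 37.2 CPM in the same WT lines given the inhibitor, and at 20.4, 1.91 and 74.8 CPM in the KO lines given it. Rrm1 was at 3.81 cRPKM and Rrm2 at 1.02 cRPKM in the KO2 vehicle library, against 24.2 and 37.1 cRPKM in KO3 with the inhibitor. Tyms, which makes thymidylate, spanned 20.0-fold (7.64). Pcna, the sliding clamp of the polymerases, spanned 4.70-fold (2.70), but it rests on 28 to 168 counts per library. Its counts and cRPKM imply a counted length of 0.303 kb, against a median of 2.96 kb over the members, so the value of Pcna is uncertain.

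The genes of mitosis followed the markers with few exceptions. In the spindle checkpoint and the anaphase-promoting complex, which together time the separation of chromosomes, ranges were 37.6-fold (19.8) for Ube2c, 68.4-fold (32.9) for Bub1, 70.5-fold (40.5) for Bub1b and 73.2-fold (45.5) for Cdc20. The level of Ube2c was 4.06, 27.5 and 2.38 CPM in the vehicle libraries of WT1, WT2 and WT3, and 8.38, 1.86 and 2.23 CPM in those of KO1, KO2 and KO3. Ube2c was at 7.79, 7.78 and 25.1 CPM in the same WT lines given the inhibitor, and at 11.8, 1.39 and 52.2 CPM in the KO lines given it. Ube2c, the ubiquitin-conjugating enzyme of that complex, had the highest mean cRPKM of all members (15.9). Cdc20 overlaps Elovl1, and Ube2c overlaps Tnnc2, on the opposite strand.

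Among the mitotic kinases and their partners, the aurora kinases Aurka and Aurkb spanned 25.4-fold (14.9) and 66.2-fold (30.9), the polo kinase Plk1 20.8-fold (13.9) and the Aurora A activator Tpx2 27.0-fold (15.1). The level of Birc5 was 2.37, 13.5 and 1.63 CPM in the vehicle libraries of WT1, WT2 and WT3, and 4.76, 0.606 and 0.667 CPM in those of KO1, KO2 and KO3. Birc5 was at 4.96, 4.9 and 13.6 CPM in the same WT lines given the inhibitor, and at 6.25, 1.01 and 36 CPM in the KO lines given it. Birc5 encodes survivin, a subunit of the complex that carries Aurora B, and it was the most abundant of this group. At the centromere, Cenpa (the histone H3 variant that marks it) spanned 92.2-fold (35.04), the kinetochore motor Cenpe 14.3-fold (12.5) and Cenpf 49.8-fold (45.7). The level of Cenpa was 2.17, 13.3 and 0.979 CPM in the vehicle libraries of WT1, WT2 and WT3, and 3.99, 0.476 and 0.706 CPM in those of KO1, KO2 and KO3. Cenpa was at 4.01, 4.15 and 15.2 CPM in the same WT lines given the inhibitor, and at 6.44, 0.434 and 40.0 CPM in the KO lines given it. The level of Cenpf was 4.3, 38.3 and 2.25 CPM in the vehicle libraries of WT1, WT2 and WT3, and 6.4, 1.08 and 1.37 CPM in those of KO1, KO2 and KO3. Cenpf was at 7.16, 7.52 and 20.4 CPM in the same WT lines given the inhibitor, and at 10.4, 0.838 and 41.8 CPM in the KO lines given it. Cenpf is the longest member by implied length (10.96 kb), and it had the lowest single level of any member, 0.08 cRPKM in the KO2 inhibitor library.

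Of the spindle and cytokinesis genes, the motors Kif20a and Kif23 spanned 66.9-fold (35.5) and 82.8-fold (47.7), the spindle protein Nusap1 55.2-fold (24.8) and the actomyosin scaffold Anln 23.4-fold (14.5). Prc1, which bundles the central spindle, and Ect2, which acts at the division furrow, spanned 16.1-fold (10.97) and 16.5-fold (9.16). Ect2 is held at the furrow by centralspindlin, which joins Kif23 with Racgap1 (chr15:99620496-99651656, minus strand), and the messages of these 2 partners differed in range. The level of Racgap1 was 23.4, 37.4 and 23.5 CPM in the vehicle libraries of WT1, WT2 and WT3, and 24.4, 18.9 and 19.7 CPM in those of KO1, KO2 and KO3. Racgap1 was at 23.2, 25.5 and 33.5 CPM in the same WT lines given the inhibitor, and at 25.5, 18.6 and 59.1 CPM in the KO lines given it. Racgap1 spanned 3.18-fold (2.01) and never lay below 6.13 cRPKM, while Kif23 was at 0.14 cRPKM in the same KO2 inhibitor library. Kif20a overlaps Cdc23, Nusap1 overlaps Oip5 and Prc1 overlaps Rccd1 on the opposite strand. In all, 12 members overlap an annotated gene on the opposite strand and 7 on the same strand, and whether the counts used the strand is not given in the sources used here.

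**Figure D3:**
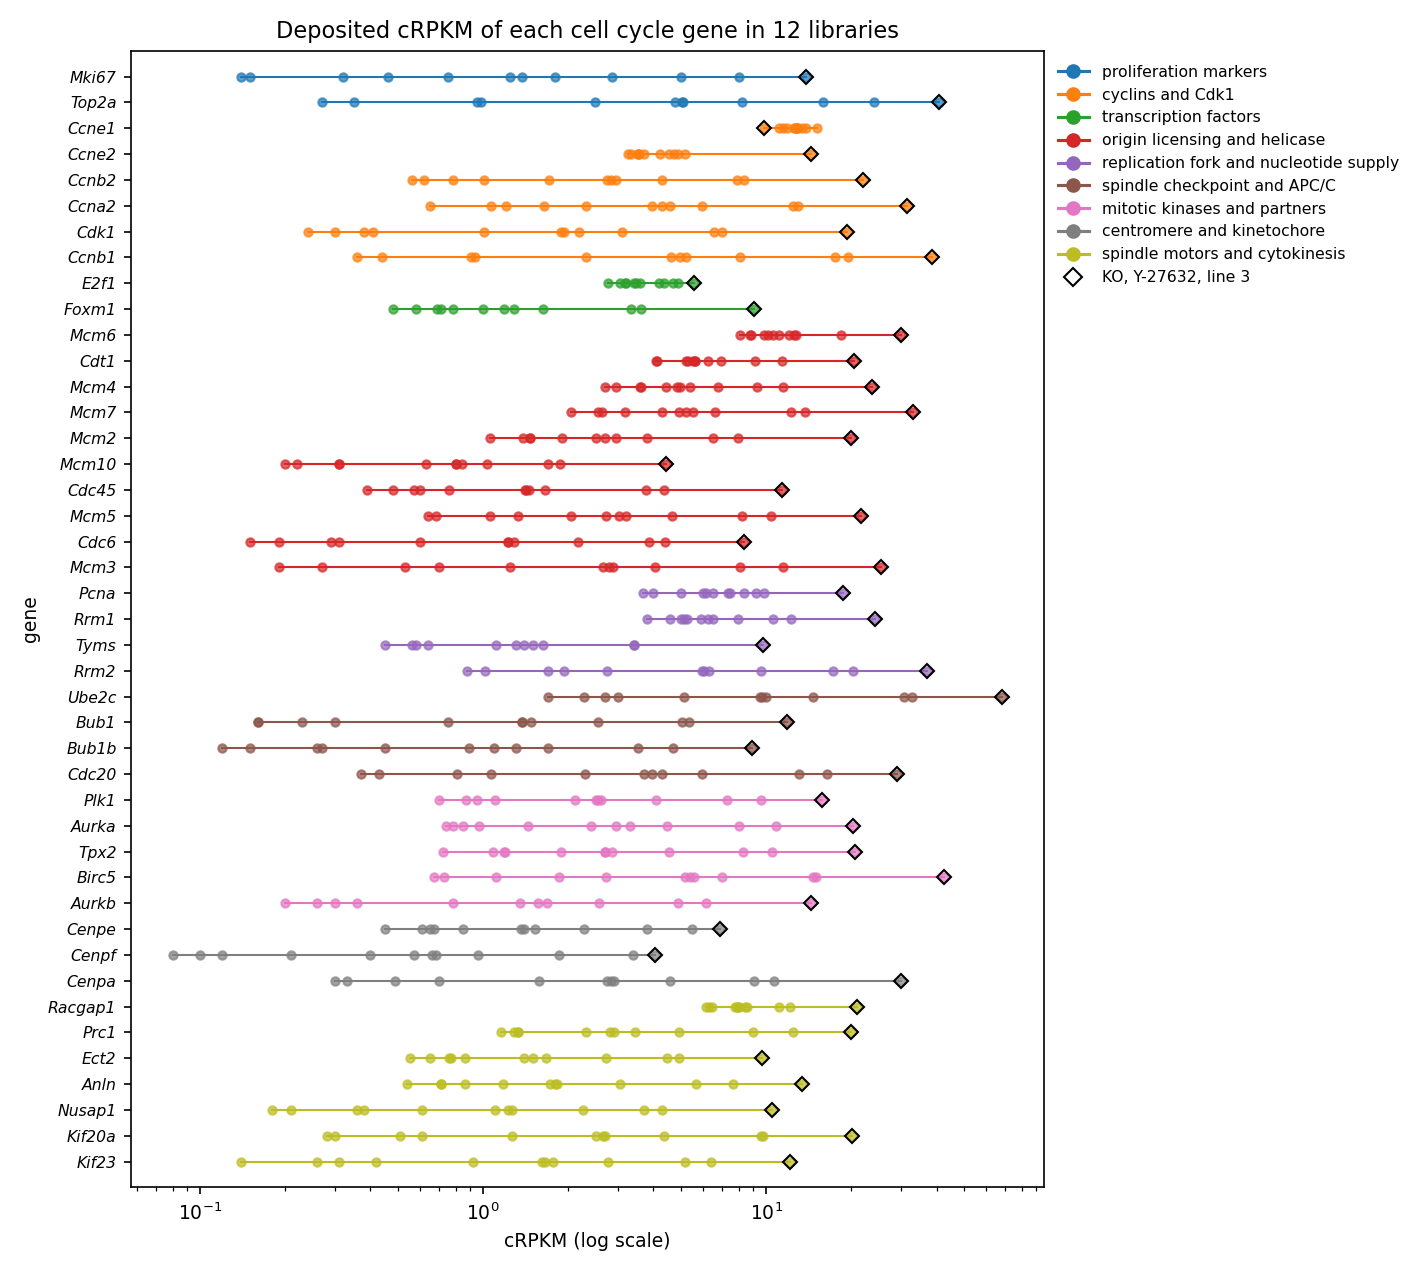
Deposited cRPKM (log scale) of each of the 43 genes, with 1 point per library, a line from the lowest to the highest, and an open diamond on the KO3 inhibitor library. Most lines cover more than 10-fold, while Ccne1, E2f1, Racgap1 and Mcm6 have the shortest lines, and the diamond is at the right end for all but Ccne1.

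The balance of the summed levels of replication and mitosis genes differed between high and low libraries. The 14 genes of licensing, helicase, fork and nucleotide supply summed to 0.708 to 0.760 times the cRPKM of the 19 genes of the 4 mitotic role groups in the 3 highest libraries. In the 4 lowest libraries that ratio was 1.52 to 2.31, the highest value belonging to the KO2 inhibitor library. A few members of narrow range weighed heavily in these sums. In the KO2 inhibitor library the replication sum was 38.65 cRPKM, with Mcm6 at 12.1, Cdt1 at 5.62 and Rrm1 at 5.12 cRPKM. Pcna, whose value is uncertain, is also in that sum. On the other side, Racgap1 made up 6.13 of the 16.74 cRPKM of the mitotic genes there. Whether the ratio differs between libraries without such genes was not tested. With 12 libraries that share their genes and scaling the ratio is a description, and no test was made of it.

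The promoters of 5 members are printed as examples, and they do not stand for steep or even members as a set. They were chosen after the values were seen: Top2a is the member of widest range, Cdk1 is the kinase of mitosis, Mcm3 and Mcm6 are partners in 1 ring with unlike ranges, and Ccne1 is the most even member. Each window runs from 250 bases before to 50 bases after the gene's start in the RefSeq annotation of GRCm38.p6, written 5′ to 3′ on the gene's strand. Capitals mark 3 motifs found on either strand: the cell cycle genes homology region (CHR, TTTGAA or TTCGAA), the CCAAT box (CCAAT), and an E2F motif (TTTCGCGC, TTTGGCGC or TTTCCCGC).
Top2a, chr11:99024140-99024439, minus strand: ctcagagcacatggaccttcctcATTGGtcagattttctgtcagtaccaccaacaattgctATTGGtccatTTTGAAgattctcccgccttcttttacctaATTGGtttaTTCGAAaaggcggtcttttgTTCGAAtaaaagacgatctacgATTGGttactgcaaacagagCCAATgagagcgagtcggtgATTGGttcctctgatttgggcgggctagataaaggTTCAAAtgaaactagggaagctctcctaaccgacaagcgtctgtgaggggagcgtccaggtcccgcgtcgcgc
Cdk1, chr10:69352863-69353162, minus strand: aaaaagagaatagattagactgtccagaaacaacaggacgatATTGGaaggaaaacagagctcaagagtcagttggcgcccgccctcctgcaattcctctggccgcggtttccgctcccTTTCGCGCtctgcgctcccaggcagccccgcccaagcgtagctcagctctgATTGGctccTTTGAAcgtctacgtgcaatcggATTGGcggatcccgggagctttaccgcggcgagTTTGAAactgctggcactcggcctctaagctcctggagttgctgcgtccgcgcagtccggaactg
Mcm3, chr1:20820263-20820562, minus strand: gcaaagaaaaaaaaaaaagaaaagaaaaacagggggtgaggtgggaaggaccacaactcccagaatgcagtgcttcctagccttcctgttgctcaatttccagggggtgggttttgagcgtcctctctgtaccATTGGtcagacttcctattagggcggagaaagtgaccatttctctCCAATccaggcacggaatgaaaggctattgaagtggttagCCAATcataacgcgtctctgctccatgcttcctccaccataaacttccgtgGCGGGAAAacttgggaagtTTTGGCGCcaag
Mcm6, chr1:128359656-128359955, minus strand: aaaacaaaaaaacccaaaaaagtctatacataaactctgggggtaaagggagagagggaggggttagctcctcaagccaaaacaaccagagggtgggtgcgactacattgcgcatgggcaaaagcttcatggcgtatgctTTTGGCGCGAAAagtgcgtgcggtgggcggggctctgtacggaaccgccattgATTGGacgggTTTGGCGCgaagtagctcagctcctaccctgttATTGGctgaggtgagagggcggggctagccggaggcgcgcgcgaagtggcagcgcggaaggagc
Ccne1, chr7:38107441-38107740, minus strand: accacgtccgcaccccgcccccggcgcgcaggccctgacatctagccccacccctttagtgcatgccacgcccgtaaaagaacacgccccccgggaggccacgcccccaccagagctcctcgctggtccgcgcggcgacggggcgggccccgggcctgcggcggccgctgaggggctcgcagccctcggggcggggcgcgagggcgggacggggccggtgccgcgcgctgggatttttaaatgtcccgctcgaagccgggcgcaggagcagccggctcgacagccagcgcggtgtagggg
The Top2a window holds 4 CHR and 6 CCAAT matches and no E2F match. The Cdk1 window holds 2 CHR matches, at -71 and -15 from the start, 3 CCAAT matches and 1 E2F match. In the window of Mcm3 there are 3 CCAAT and 2 E2F matches, and in that of Mcm6 there are 2 CCAAT and 3 E2F matches, of which the pair at -110 and -106 overlap. The 3 motifs do not occur in the Ccne1 window, which says only that these letters are not there. They are also absent from the windows of Birc5 and Nusap1, which ranged over 59.4-fold and 55.2-fold. The window of Racgap1, which ranged over 3.18-fold, holds 1 CHR and 1 CCAAT match.

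RefSeq windows were matched to 37 of the 44 named genes, in 40 windows, since a gene can have more than 1 start. Of the 25 windows of cyclins, Cdk1, proliferation markers and mitotic genes, 20 (80%) held a CHR match and 19 (76%) held a CHR with a CCAAT box. Over all 32851 windows of the same length these shares were 19.2% and 7.52%. Of the 14 windows of replication genes, 6 (42.9%) held the E2F motif, against 1 of 25 (4%) in the mitotic set and 1.84% of all windows. CHR matches were in 3 of the 14 replication windows (21.4%), near the share of all windows. Genes with a CHR match had a median range over the libraries of 37.1-fold (20 genes) and those without one 20.2-fold (16 genes), and the medians were 17.6-fold and 10.96-fold without the KO3 inhibitor library. The ranges within both sets, 3.18 to 143-fold and 1.65 to 124-fold, overlapped almost wholly. A match is a description of letters and not a bound site, and the windows of Ect2 and of Prc1 overlap each other within each gene.

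Genes of the pathway outside the 43 members shared the pattern to different degrees. Counts were present for 111 of 112 such genes (Nek2 was NA), in 6 lists. Of the 45 other mitosis genes, 43 had the same 3 highest libraries as the members and their median range, here on CPM + 0.1, was 28.8-fold (12.02 without the KO3 inhibitor library). Of the 34 other replication genes 30 did, with a median range of 6.31-fold (2.82). Among upstream control genes, the pocket protein and E2F lists had flatter medians. The 8 pocket protein and DREAM genes had a median range of 1.80-fold (1.41), with 3 sharing the 3 highest libraries, and the 9 other E2F and DP genes had 2.51-fold (1.56), with 4 sharing them. Within these lists Mybl2, which encodes B-Myb, still ranged over 53.8-fold (20.9), E2f8 over 52.2-fold (17.4) and E2f7 over 18.0-fold (13.3). The 8 G1 cyclins and kinases were not flatter than the other replication genes. Their median range was 7.22-fold (5.70), and 6 shared the 3 highest libraries. The 7 CDK inhibitors had a median range of 4.44-fold (3.62). Lin37, a DREAM subunit, was the most abundant of its list and stood at 15.2 to 20.0 cRPKM in all libraries, and Tfdp1, the dimer partner of E2F proteins, stood at 19.0 to 40.25 cRPKM. Bub3, a checkpoint protein that dividing and resting cells share, ranged over 1.47-fold (1.26).

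The G1 regulators ranged from Cdk6 (a partner of D-type cyclins), at 0.03 to 0.29 cRPKM, to genes that were abundant in every library. The level of Cdk4 was 25.5, 37 and 20.5 cRPKM in the vehicle libraries of WT1, WT2 and WT3, and 26.1, 20.3 and 19.8 cRPKM in those of KO1, KO2 and KO3. Cdk4 was at 25.9, 27.3 and 41.2 cRPKM in the same WT lines given the inhibitor, and at 28.3, 17.7 and 94.4 cRPKM in the KO lines given it. Cdk4, the G1 kinase that pairs with D-type cyclins, was thus nowhere below 17.7 cRPKM. The level of Cdkn2d was 56.7, 52.7 and 50.2 cRPKM in the vehicle libraries of WT1, WT2 and WT3, and 50.3, 57.1 and 57 cRPKM in those of KO1, KO2 and KO3. Cdkn2d was at 53, 50.5 and 42.2 cRPKM in the same WT lines given the inhibitor, and at 54.4, 58.4 and 26.2 cRPKM in the KO lines given it. This inhibitor of Cdk4 and Cdk6, known from postmitotic neurons, ran the other way, lowest in KO3 with the inhibitor. Of the 7 CDK inhibitors, 5 had the members' 3 highest libraries. Dut, which keeps uracil out of DNA, was the most abundant other replication gene at 20.7 to 70.0 cRPKM.

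In vehicle the KO lines were compared with the WT lines to ask whether loss of the microexon goes with a change in these genes. Of the 43 members, 41 had lower and 2 had higher fitted levels in KO, with a median log2 difference of -1.43 against -0.01 over all genes tested, of which 48.3% were higher. None passed the threshold (edgeR quasi-likelihood test, Benjamini-Hochberg adjusted p below 0.05: 0 of 43), where 0% of the 15443 genes tested did. At an unadjusted p below 0.05 there were also 0 members (1.99% of all genes), and DESeq2 called 0 (0.0718% of all genes) and had 0 at that level (3.23%). Cenpf had the smallest p of the members, with a log2 difference of -2.33 ± 1.40 (SE) and an adjusted p of 0.999 by edgeR. In 0 members did the 3 KO libraries lie wholly above or below the 3 WT libraries, against 7.63% of all genes lying above and 4.9% below. The direction rested on 1 library: without WT2 in vehicle, 37 members were higher in KO and the median was 0.21. Leaving out the KO3 inhibitor library, which enters through the shared spread, left the median at -1.43 (48.3% of all genes higher), and Racgap1 then had the smallest p, at -0.42 ± 0.22 and an edgeR adjusted p of 0.576.

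With the inhibitor, all 43 members had higher fitted levels in KO than in WT, with a median log2 difference of 0.77 and -0.00 over all genes tested, of which 49.9% were higher. The edgeR test called 0 members, as it did 0% of the genes tested, and 0 had an unadjusted p below 0.05 (3.5% of all genes). DESeq2 called 0 (0.118% of all genes) and had 2 at that level (5.61%). Ccne2 came nearest, at 0.89 ± 0.43 and an edgeR adjusted p of 0.856. Without the KO3 inhibitor library the sign turned: 38 members were lower and 5 higher in KO (42.6% of all genes were higher), the median was -0.87, and Ccne1 came nearest at 0.25 ± 0.11 with an adjusted p of 0.528 (edgeR). With limma voom the median over the 12 libraries was -0.12. In E2f1 alone the KO libraries did not overlap the WT libraries and lay above them, 1 of 43 members, where 3.53% of all genes tested did so and 7.02% lay below. E2f1 also lay so without the KO3 inhibitor library, as did 17% of all genes.

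Over the 6 lines, with both libraries of a line summed, the median log2 difference between KO and WT was 0.26 (0.04 over all genes) and 41 members were higher in KO, as were 60.7% of the 16090 genes tested. The edgeR test called 0 members (0% of all genes), with 0 at an unadjusted p below 0.05 (2.65% of all genes), and DESeq2 called 0 (0.549% of all genes) with 0 at that level (4.14%). Ccne2 again came nearest, at 0.60 ± 0.33 with an edgeR adjusted p of 0.998. Without the KO3 inhibitor library the median was -1.26 with 40 members lower and 3 higher (45.6% of all genes were higher), and 2 had an unadjusted p below 0.05, where 22.9% of all genes did and 0.181% were called. Line KO3 was represented by its vehicle library alone in that fit. Ccne1 was then higher in KO by 0.18 ± 0.07 with an edgeR adjusted p of 0.188. With limma voom and all libraries the median was -0.31.

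Within a line, the ratio of the summed level after 2 h of ROCK inhibition to that in vehicle ran from 0.324 to 10.0. In WT1 it was 1.43, with 39 members higher. In WT2 it was 0.324 times, with 0 higher and 43 lower. WT3 showed 4.74 times, with all 43 higher. The KO lines gave 1.36 times in KO1 (40 higher), 1.19 times in KO2 (27 higher) and 10.0 times in KO3 (42 higher, Ccne1 lower). In each of the 6 lines 48.3% to 55.7% of all genes tested were higher with the inhibitor, and their median log2 change was between -0.01 and 0.04. The 2 lines with the largest ratios, WT3 and KO3, started from 2 of the 3 lowest vehicle libraries, and WT2, the only line with a lower sum, started from the highest.

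**Figure D4:**
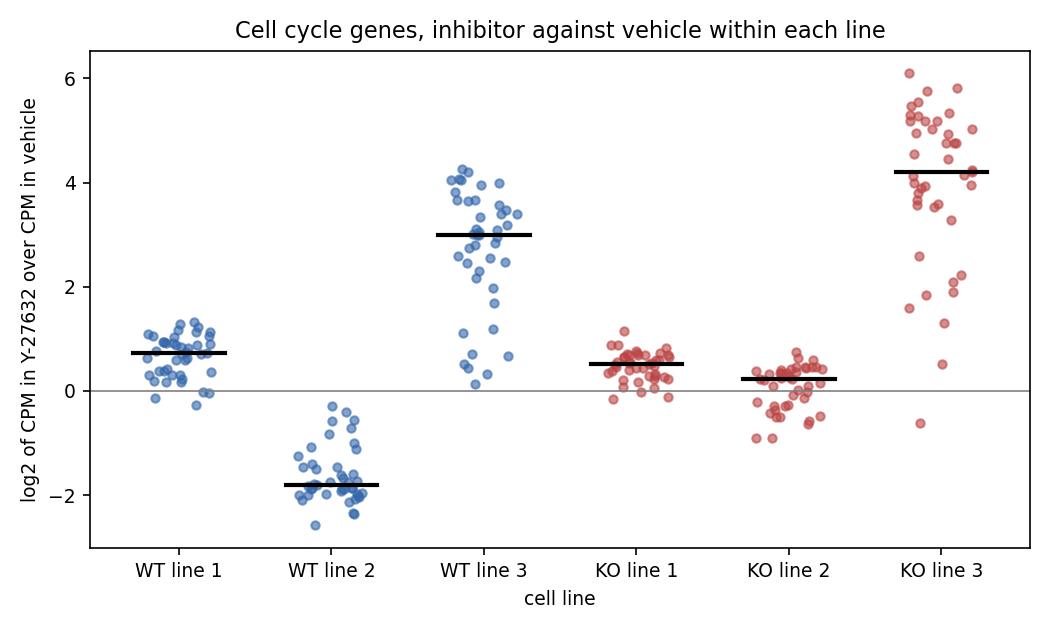
Log2 ratio of CPM in the inhibitor library to CPM in the vehicle library of the same line, with 1 point per member and a bar at the median of the 43 members. The medians are 0.74, -1.81 and 3.00 in WT1, WT2 and WT3, and 0.52, 0.23 and 4.21 in KO1, KO2 and KO3.

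In WT lines the fitted differences with inhibitor centred near 0: the median was 0.07 (0.01 over all genes), with 30 members higher and 13 lower, and 53.4% of all genes higher. The edgeR test called 0 members (0% of all genes), 0 had an unadjusted p below 0.05 (0.304% of all genes), and DESeq2 likewise called 0 (0% of all genes) with 0 at that level (0.427%). Ccne1 had the smallest p, at -0.10 ± 0.17 with an edgeR adjusted p of 1.00. In 0 members did inhibitor and vehicle libraries lie apart (3.04% of all genes higher, 2.93% lower). Without WT2 in vehicle the median was 1.73.

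In KO lines 42 members were higher with the inhibitor and the median was 2.39 (-0.02 over all genes, of which 48.2% were higher). The edgeR test called 0 members (0% of all genes) and 0 had an unadjusted p below 0.05 (7.05% of all genes), whereas DESeq2 called 0 (0% of all genes) but had 37 at an unadjusted p below 0.05, all higher, where it had 14% of all genes (12.7% higher). Mcm2 had the smallest p, at 2.17 ± 0.98 with an edgeR adjusted p of 0.474. Without the KO3 inhibitor library the median was 0.71 with all 43 higher (51% of all genes), and E2f1 came nearest at 0.36 ± 0.25 (edgeR adjusted p of 1.00). With the cell line as a block it was 1.41, and 0.34 with the block and without that library. Inhibitor libraries lay wholly above vehicle libraries in Cdt1, E2f1 and Mcm6, 3 of 43 members, where 3.2% of all genes tested did so and 5.65% lay below. The same 3 did so without the KO3 inhibitor library (5.52% of all genes).

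The interaction asks whether the inhibitor acted differently in KO and WT. Its median over the members was 2.19 (-0.01 over all genes), positive in 42 and in 49.2% of all genes. The edgeR test called 0 members (0% of all genes), with 0 at an unadjusted p below 0.05 (1.2% of all genes), and DESeq2 called 0 (0% of all genes) with 0 at that level (3.29%). Mki67 had the smallest p, at 3.39 ± 2.09 with an edgeR adjusted p of 0.808. The median was 0.60 without WT2 in vehicle and 0.50 without the KO3 inhibitor library, where 42 members and 49.7% of all genes were positive. Without that library and with the cell line as a block it was -0.35, so its sign rested on these choices.

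Of the 111 pathway genes outside the members, edgeR called 0 in each of the 6 comparisons, and DESeq2 called 1 of 111, Cdkn1c, lower in KO over the lines, where it called 0.549% of all genes. The level of Cdkn1c was 24.7, 37.9 and 17.9 CPM in the vehicle libraries of WT1, WT2 and WT3, and 15.2, 11.7 and 13.8 CPM in those of KO1, KO2 and KO3. Cdkn1c was at 22, 23.8 and 29 CPM in the same WT lines given the inhibitor, and at 18.4, 14.2 and 14.8 CPM in the KO lines given it. Cdkn1c encodes p57, an imprinted CDK inhibitor that holds progenitors out of the cycle. Its 3 KO libraries lay below its 3 WT libraries both in vehicle, as in 4.9% of all genes tested, and with the inhibitor, as in 7.02%. It followed the members' order only in part. WT2 vehicle and WT3 inhibitor were its highest libraries, and both KO2 libraries and KO3 vehicle its lowest. Its KO3 inhibitor library, however, lay within the range of the other KO libraries. Over the lines its log2 difference was -0.77 ± 0.16 with an adjusted p of 0.620 by edgeR and -0.78 ± 0.18 with 0.00491 by DESeq2, and without the KO3 inhibitor library it was -0.81 ± 0.14 with 0.0859 by edgeR. In vehicle it was -0.98 ± 0.25 with an edgeR adjusted p of 0.999. Cdkn1c overlaps Gm44732 on the opposite strand.

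The other pathway genes named next were among the 2 of smallest p in a comparison, and edgeR called none of them. In vehicle Cdk6, a G1 kinase, was at -1.44 ± 0.69 and, without the KO3 inhibitor library, the cytokinesis kinase Cit was at -0.30 ± 0.10 (edgeR adjusted p of 0.999 and 0.529). With the inhibitor Cit was at -0.42 ± 0.18 between KO and WT (0.856, edgeR). Without the KO3 inhibitor library the Cdk inhibitor Cdkn2b was at -1.84 ± 0.33 over the lines (0.0875, edgeR). With the inhibitor in KO, the Cdk inhibitor Cdkn2c was at 4.50 ± 1.66 and the clamp loader subunit Rfc4 at 1.39 ± 0.57 (both 0.474, edgeR). Cdkn2c was at 6.90 CPM in KO3 and at 0.28 and 0.06 CPM in KO1 and KO2, so that value is 1 library's. In WT with the inhibitor, the DREAM subunit Lin9 was at -0.39 ± 0.35 and E2f2 at -0.21 ± 0.22 (both 1.00, edgeR). In the fit without the KO3 inhibitor library Dut was at 0.31 ± 0.23. For the inhibitor in KO without the KO3 inhibitor library, the helicase subunit Gins4 was at 0.24 ± 0.16 and the origin kinase Cdc7 at -0.48 ± 0.38 (both 1.00, edgeR).

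Neuron markers ran against the members at the top of the order, and lists for other cell types differed from one another. In the KO3 inhibitor library all 8 neuron markers were at their lowest, as were 39.0% of all genes tested. The 8 markers summed to 1219 CPM there, against 3606 to 5211 CPM in the other 11 libraries. Over the groups that sum ran from 3606 to 4963 CPM for WT and 4844 to 5211 CPM for KO in vehicle, and from 3802 to 4739 CPM for WT and 1219 to 5097 CPM for KO with the inhibitor. The WT2 vehicle and WT3 inhibitor libraries, next in cell cycle level, had the next lowest sums, at 3606 and 3802 CPM.

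All 8 neural progenitor markers were highest in KO3 with the inhibitor, as were 38.4% of all genes tested. These markers summed to 294 CPM there, against 18.2 to 71.5 CPM elsewhere (18.2 to 71.5 for WT and 26.4 to 43.1 for KO in vehicle, 32.8 to 63.3 for WT and 33.5 to 294 for KO with the inhibitor). Their most abundant gene, Fabp7 of radial glia, was at 246 cRPKM there and at 11.5 to 36.5 cRPKM in the rest. Of the 7 astrocyte markers 6 were highest there, with a sum of 1312 CPM against 466 to 725 CPM elsewhere (466 to 725 for WT and 571 to 605 for KO in vehicle, 505 to 557 for WT and 611 to 1312 for KO with the inhibitor), and Aldoc, the most abundant, was lowest there. Beyond that library the astrocyte sum did not share the members' order: it was 505 CPM in WT3 with the inhibitor and 689 CPM in KO2 with the inhibitor. The members' 3 highest libraries were also the 3 highest for 4 of the 7 astrocyte and 4 of the 8 progenitor markers.

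The other lists did not share 1 pattern. The mesenchymal sum, led by Col1a1, was 1176 CPM in WT2 vehicle and 774 CPM in WT3 with the inhibitor, but 91.9 CPM in KO3 with the inhibitor. It ran from 113 to 1176 CPM for WT and 34.6 to 114 CPM for KO in vehicle, and from 282 to 774 CPM for WT and 66.2 to 91.9 CPM for KO with the inhibitor. The oligodendrocyte lineage sum was 554 CPM in KO3 with the inhibitor and 24.4 to 171 CPM elsewhere, with Pdgfra, which is also a mesenchymal gene, at 509 CPM there and at 2.28 CPM in KO2 with the inhibitor, while Sox10 had 9 counts at most. The endothelial sum was 164.5 CPM there and 2.46 to 65.6 CPM elsewhere, led by Tek. Pluripotency markers summed to 11.2 to 22.4 CPM, led by Esrrb, with Tdgf1 at 1 count at most, and Pou5f1 and Nanog at 9 counts at most. The intermediate progenitor list, led by Insm1 with Neurog1 at 1 count at most, summed to 4.81 to 7.53 CPM, and the microglia and blood list, led by Csf1r with Cx3cr1 at 1 count at most, to 0.476 to 13.1 CPM. Their part in the levels of the cell cycle genes was not tested.

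**Figure D5:**
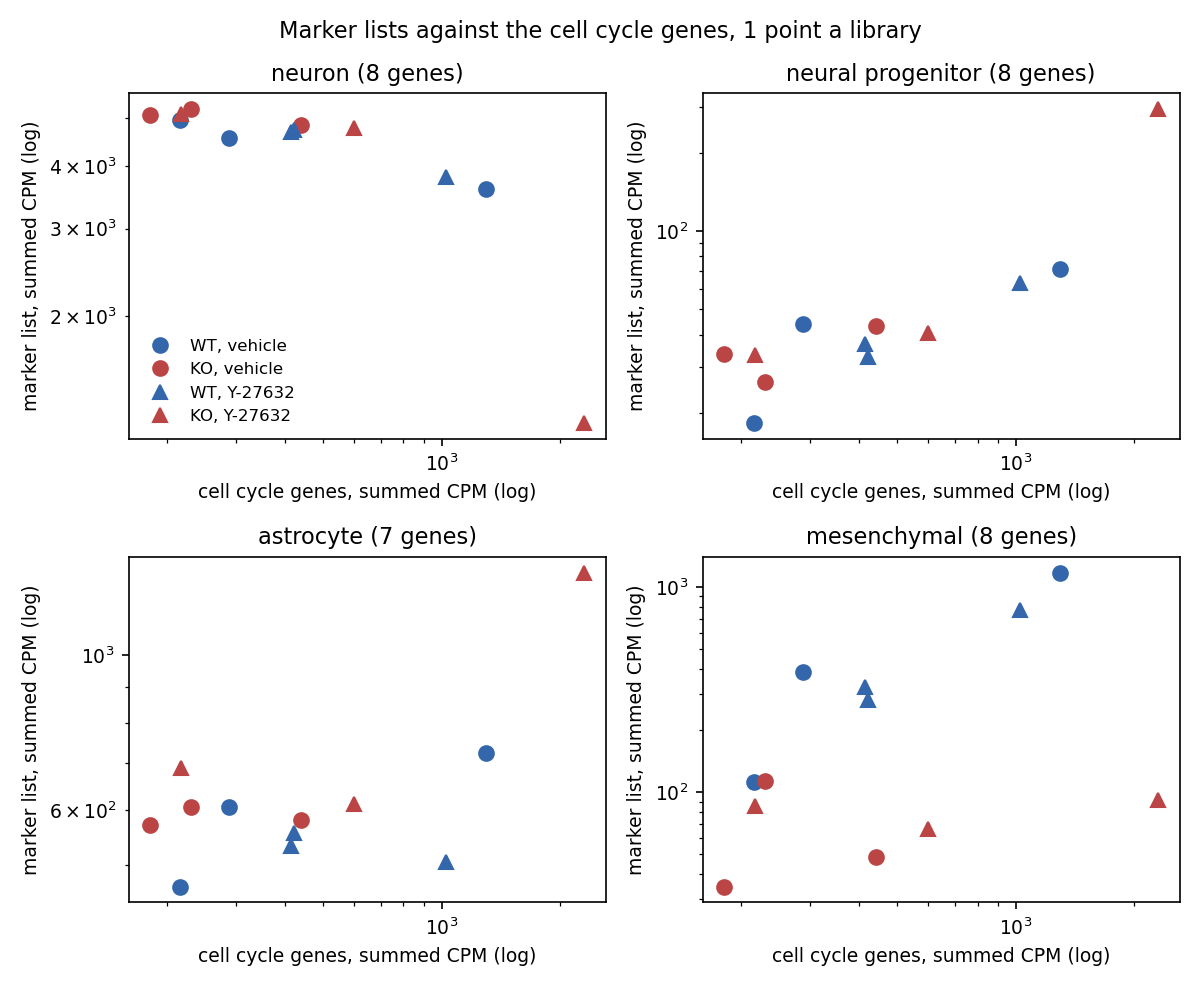
Summed CPM of 4 marker lists against the summed CPM of the 43 cell cycle genes, both on log scales, with 1 point per library coloured by genotype and shaped by treatment. The KO3 inhibitor library lies lowest for neuron markers (1219 CPM) and highest for neural progenitor and astrocyte markers, and the mesenchymal panel separates the WT2 vehicle and WT3 inhibitor libraries from it.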

How the data were processed

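RNA was sequenced from 12 neuron cultures as poly(A)-selected stranded libraries, per the labels' protocols, and the build was mm10 per the submitters' processing notes. The authors deposited 1 table per library with raw read counts and cRPKM (a form of RPKM whose correction no label explains) per Ensembl gene. The aligner, the annotation and the use of strand in counting are not given in the sources used here. The series' design text names hippocampus, whereas the sample labels name cultured neurons, and the labels were followed.

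Groups came from the labels. Counts were tested with edgeR 4.0.16 (quasi-likelihood F test, filterByExpr by group, TMM scaling, Benjamini-Hochberg adjustment over all genes tested, threshold 0.05) in R 4.3.3, in 1 model over the 4 groups, and over 6 lines with both libraries of a line summed. Alternatives were DESeq2 1.42.0, limma voom 3.58.1, library totals without TMM, no low-count filter, only the groups compared, blocks, and leaving out each library. The fit was tested on simulated data. Totals of 23253566 to 35012561 counts limit precision less than the spread between libraries does. Since the labels name separate lines but not separate clones, p-values over the 6 lines measure the spread between these lines. In the model over the 4 groups they measure the spread between libraries within groups. Without a block for the line, both libraries of a line count there as separate.

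Each line gave a vehicle and an inhibitor library, so these are paired by line. Correlations of their deviations from the group means were 0.411, -0.553 and -0.723 in WT1 to WT3 and -0.191, 0.574 and -0.373 in KO1 to KO3. The members, pathway lists and marker lists were chosen with earlier results of these data known. Values in every library are given for the proliferation markers, for the most abundant member of each other role group, and for members with the smallest p in a comparison. Beyond the members, the text names the most abundant gene of each list, the 2 pathway genes with the smallest p in each comparison, and markers at 3 counts or fewer everywhere.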

Additional observations from a re-analysis of the deposited data

How the results depend on the processing

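No member was called in any of the 110 fits, and 4 of the 6 comparisons' median log2 differences changed sign when 1 library was left out, whereas those for the inhibitor in KO and the interaction stayed positive. Leaving out 1 library at a time, the median over the members ranged from -2.31 to 0.21 for KO against WT in vehicle (highest without WT2 vehicle), from -0.87 to 1.49 with the inhibitor (lowest without KO3 inhibitor, highest without WT3 inhibitor), and from -1.26 to 0.72 over lines (lowest without KO3 inhibitor, highest without line KO2). For inhibitor against vehicle it ranged from -0.55 to 1.73 in WT (lowest without WT3 inhibitor, highest without WT2 vehicle) and from 0.71 to 3.14 in KO, and for the interaction from 0.50 to 3.10 (both lowest without KO3 inhibitor and highest without KO1 vehicle). The log2 ratio of mean summed levels was -1.08 (-1.55 to 0.17) for KO against WT in vehicle, 0.75 (-0.60 to 1.32) with the inhibitor, 0.04 (-0.53 to 1.30) for the inhibitor in WT and 1.87 (0.52 to 2.35) in KO. Ccne1 between KO and WT with the inhibitor was at -0.10 without KO2 inhibitor and 0.25 without KO3 inhibitor. The count of members at an unadjusted p below 0.05 for the inhibitor in KO was 0 with edgeR (7.05% of all genes) and 37 with DESeq2 (14% of all genes). With edgeR without KO2 inhibitor it was 41, and 0 of all genes were called in that fit. The share of all genes at the unadjusted level is not given here for that fit, so the 41 cannot be set against it. The cause was not tested.

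With the cell line as a replicate block the medians were 0.60 for the inhibitor in WT, 1.41 in KO and 0.78 for the interaction. With that block and without the KO3 inhibitor library, an alternative chosen after seeing the data, they were 0.60, 0.34 and -0.35, and Mki67 in the interaction was at -0.21. KO and WT lines share only a number, and with that number as a replicate block the medians were -1.48 in vehicle, 0.60 with the inhibitor and -0.13 over lines. Correlations between same-numbered KO and WT libraries were -0.35, -0.649 and 0.167 in vehicle and 0.38, 0.649 and 0.795 with the inhibitor. No block changed a call.

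limma voom gave medians of -0.89 in vehicle, -0.12 with the inhibitor and -0.31 over lines, and 0.70, 1.49 and 0.81 for the inhibitor in WT, in KO and the interaction. All genes called were 0 by edgeR, while DESeq2 called 11 in vehicle, 18 with the inhibitor and 88 over lines, and edgeR called 29 over lines without the KO3 inhibitor library.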

Other observations

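Some genes of the marker lists, such as the 4 below, had the members' 3 highest libraries in the same order and as wide a range. The share of all genes with both that order and so wide a range is not given here. Taken alone, the same 3 libraries were the highest, in any order, for 22.7% of all genes tested. A range of 10-fold or more was seen in 10.3% of all genes tested, and of 50-fold or more in 2.73%. The platelet-derived growth factor receptor Pdgfra ranged over 214-fold on CPM + 0.1, the angiopoietin receptor Tek over 179-fold, the gap junction protein Gja1 over 59.2-fold and the Notch target Hes1 over 43.1-fold. Without the KO3 inhibitor library these ranges were 63.8, 61.3, 28.0 and 13.0-fold. In cRPKM, Gja1 went from 1.24 to 80.3 and Pdgfra from 0.35 to 83.2. These 4 genes were picked after their values were seen, and no test was made of the likeness. Col1a1 ranged over 43.9-fold but was highest in WT2 vehicle.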
